A study of Mus musculus with 6 samples.

Results

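The Speer genes (spermatogenesis associated glutamate (E)-rich proteins) form a rodent family of gene copies and pseudogenes that are known for their expression in the haploid germ cells of the testis. Haploid germ cells, the round and elongating spermatids, arise only after meiosis, and the first wave of meiosis has not been completed in the mouse testis in the first week after birth. The proteins are rich in glutamate, and related copies lie close to each other in the genome. Members were taken as every lncRNA or mRNA probe of the array whose accession maps to a symbol starting with Speer in the RefSeq gene table. This gave 14 probes for 13 genes, among the 19259 genes that a probe with 1 symbol names. The table holds 15 Speer genes, of which 10 are protein coding and 5 are transcribed pseudogenes. Speer4c and Speer4f2 had no probe of their own.

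The measurements were made on whole testes of male C57/BL6 mice, 6 days old (neonatal) or 8 weeks old (adult), with 3 biological replicates per age and 1 one-colour array for each. Signals were scaled on each array by the 75th percentile of the background-subtracted values, which ran from 1387 to 2954 on the neonatal arrays and from 749.1 to 1858 on the adult arrays. Their log2, with a floor at -7.23, is called normalized log2 signal. In the scanner output, the 2 arrays of replicate 3 shared a scan identifier, and the 4 arrays of replicates 1 and 2 shared another. Arrays with the same scan identifier are called a slide here, so the slide is inferred from the scan. Between 65.9% and 69.8% of the spots on an array were well above background by the scanner's flag.

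The scanner also flags spots as outliers, and such spots were left out of the tests. The flags fell more often on bright spots. Above the 75th percentile of the array, 76.0% of the spots were flagged in adult replicate 3 and 83.2% in neonatal replicate 3, against 21.3% and 17.8% in adult replicates 1 and 2 and 24.5% and 23.2% in neonatal replicates 1 and 2. Below it the share was at most 13.2%, in neonatal replicate 3. Of the 42 adult spots of the Speer probes, 19 were flagged, and of the 42 neonatal spots 1 was. For this reason 5 of the probes could not be tested with flagged spots left out, and their values with the spots kept are given and named as such.

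To ask which Speer transcripts differ between neonatal and adult mouse testes, limma was fitted over all tested lncRNA and mRNA probes with a block for the replicate number, and calls needed a 5-fold difference or more with an adjusted p (Benjamini-Hochberg) of 0.05 or less. Speer2, Speer3, Speer4b, Speer4d and Speer9-ps1 were up-regulated in adult testes, 5 of the 7 Speer probes that could be tested, against 15.4% of the 24517 probes tested in all. With the flagged spots kept, 10 of 12 tested Speer probes were up-regulated, against 15.8% of 29888 probes. All 12 log2 fold changes were above 0, so none was called lower. Speer4a and Speer8-ps1 were tested and not called. The 5 calls with flagged spots left out rest on replicates 1 and 2. Without replicate 1, and also without replicate 2, 0 of 2 Speer probes were called, since Speer4a and Speer8-ps1 alone then had enough unflagged spots for the test. With the spots kept, 10 of 12 were called whichever replicate was left out. Speer6-ps1 and Speer4cos were not well above background on any array. In bulk tissue, fewer cells of a type and less RNA per cell cannot be told apart, and this holds for each difference between the ages below. A probe that passed the filter on dim signals only through the adult arrays had to differ in this direction, so the counts are a description of these probes.

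**Figure D1:**
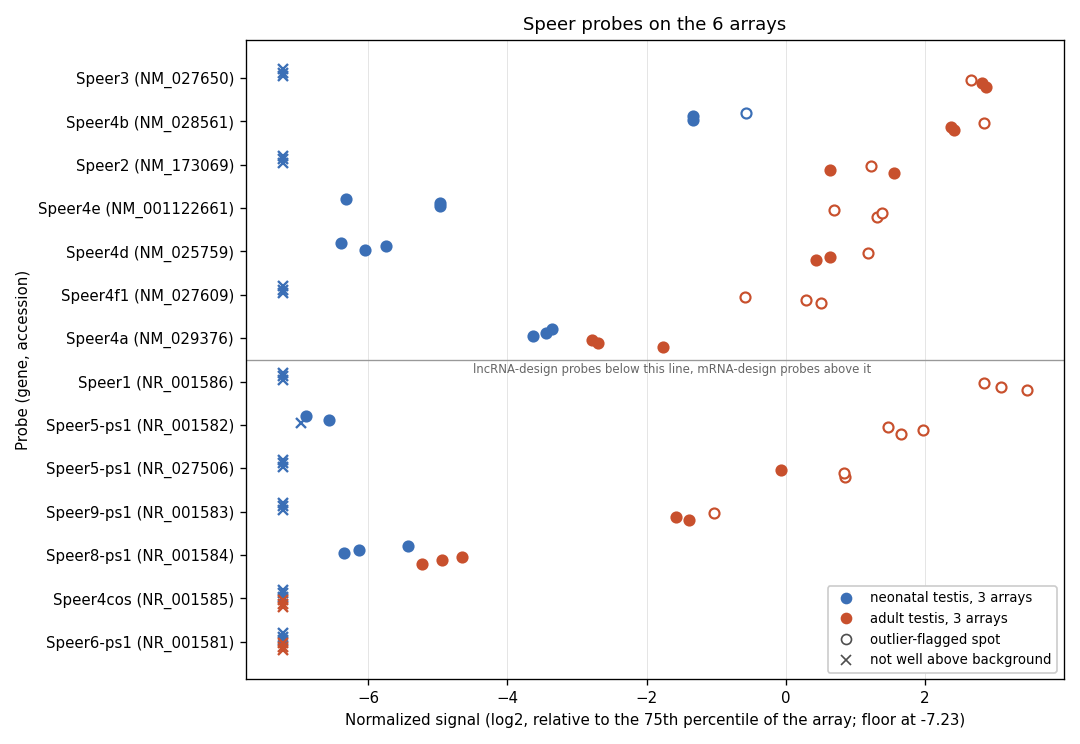
Normalized log2 signal (x axis) of the 14 Speer probes (y axis) on each of the 3 neonatal arrays (blue) and the 3 adult arrays (orange), 1 mark per array. Open circles are outlier-flagged spots, crosses are spots not well above background, and values at -7.23 are at the floor. Speer4cos and Speer6-ps1 are at the floor on all arrays, and of the other probes Speer4a and Speer8-ps1 have the ages closest together. For 6 probes with adult signal the 3 neonatal values are at the floor, so their direction was fixed by the filter. Levels of different probes cannot be set against each other.

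Speer5-ps1 is a transcribed pseudogene on chromosome 10 with 2 lncRNA-design probes. The probe for NR_027506 was at the floor and not well above background on the 3 neonatal arrays, and its normalized log2 signal was 0.85, 0.84 and -0.07 in adult replicates 1 to 3. The spots of adult replicates 1 and 2 were flagged, so the probe could not be tested with flagged spots left out. On the adult array that remained, the lower bound of the difference was 133-fold. Keeping all spots gave a bound of 204-fold (adjusted p = 4.43e-05 from limma). The second probe, for NR_001582, had a normalized log2 signal of -6.97, -6.57 and -6.89 in neonatal replicates 1 to 3, of which the first was not well above background, and 1.65, 1.97 and 1.47 in adult replicates 1 to 3. All 3 adult spots were flagged. When these are kept, limma put the difference at 8.51 on the log2 scale (SE 0.12, adjusted p = 1.12e-05). The brightest negative-control spots of the neonatal arrays were at -5.67, -5.48 and -6.12, above this probe's values, so the size of the difference is uncertain. On both probes of Speer5-ps1 every adult value was above every neonatal value. After the normexp background correction, with spots kept, the log2 fold changes were 5.62 for NR_027506 and 6.40 for NR_001582, smaller than without it. The first is under the bounds of that probe (7.06 and 7.67 on the log2 scale), which hold only for the scaling used here.

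Speer9-ps1 (NR_001583), a transcribed pseudogene on chromosome 7, was at the floor and not well above background on the neonatal arrays. The normalized log2 signal was -1.39, -1.58 and -1.03 in adult replicates 1 to 3, and the spot of adult replicate 3 was flagged. The adult values stood far above the neonatal ones, with a bound of 50.2-fold (adjusted p = 0.000272 from limma, 2 adult arrays). With the flagged spot kept, the bound was 55.8-fold (adjusted p = 3.04e-05). The value of Speer9-ps1 with the normexp background correction was the lowest among the alternatives, a log2 fold change of 3.54, and still above 5-fold. It is under the first bound (5.65 on the log2 scale), so the bounds hold only for the scaling used here.

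The other 3 pseudogenes of the family did not show this pattern. Speer8-ps1 (NR_001584), on chromosome 5, had 6 unflagged spots, all well above background by the scanner's flag. It had a normalized log2 signal of -6.35, -6.13 and -5.43 in neonatal replicates 1 to 3 and of -5.23, -4.94 and -4.65 in adult replicates 1 to 3. The ages did not overlap. By limma it differed by 1.03 on the log2 scale (SE 0.13, adjusted p = 0.0030), which is under 5-fold and so not a call. On 4 of the 6 arrays (replicates 1 and 2 of both ages) the probe was under the brightest negative-control spot, so the size is uncertain. Speer4cos (NR_001585) and Speer6-ps1 (NR_001581) were at the floor on all 6 arrays, and no fold change was computed for them.

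Speer1 (NR_001586) carries an older pseudogene name in the table, is now annotated as protein coding, and was measured by a lncRNA-design probe. In adult replicates 1 to 3 its normalized log2 signal was 3.46, 3.10 and 2.85, with all 3 spots flagged, and the neonatal arrays were at the floor. For Speer1 the bound was 1235-fold if these spots are kept (adjusted p = 1.17e-05 from limma). Its 3 neonatal spots were not well above background. Speer3 (NM_027650) had adult values of 2.88, 2.83 and 2.67, the last of them flagged, and was at the floor in neonatal testes. These 3 adult values lay close together. The bound for Speer3 was 1014.5-fold on the 2 unflagged adult arrays (adjusted p = 0.000135). Speer2 (NM_173069), the member on chromosome 16, had adult values of 1.55, 0.63 and 1.22, the last of them flagged, with neonatal arrays at the floor. Its bound was 299-fold on 2 adult arrays (adjusted p = 0.000477), and the second adult array was the lowest. Speer4f1 (NM_027609) had adult values of 0.51, 0.29 and -0.59, all flagged, with neonatal arrays at the floor. Its bound with these included was 147-fold (adjusted p = 6.19e-05). For these probes the neonatal values at the floor carry no spread, so the test rests on the adult spread. The bounds hold only for the scaling used here and are not limits under another background correction. After the normexp background correction the log2 fold changes were smaller, at 8.17 for Speer1, 8.41 for Speer3, 6.30 for Speer2 and 5.15 for Speer4f1, and each was still called, with spots kept for Speer1 and Speer4f1.

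The remaining Speer4 genes were well above background in neonatal testes too. Speer4d (NM_025759) had a normalized log2 signal of -6.05, -5.75 and -6.40 in neonatal replicates 1 to 3 and of 0.44, 0.64 and 1.18 in adult replicates 1 to 3, the last of them flagged. The ages did not overlap, and limma gave 6.43 on the log2 scale for the 2 unflagged pairs (SE 0.14, adjusted p = 0.000216). Its neonatal values, too, were under the brightest negative-control spot of each array, so the size is uncertain. Speer4e (NM_001122661) had neonatal values of -4.97, -4.97 and -6.32 and adult values of 1.31, 1.39 and 0.69, all 3 flagged. Keeping them gave 6.54 on the log2 scale (SE 0.19, adjusted p = 4.02e-05 from limma), and neonatal replicate 3 was the lowest of the 6 arrays. Its value was under the brightest negative-control spot of that array (-6.12), so the size is uncertain for Speer4e as well. Speer4b (NM_028561) had neonatal values of -1.33, -1.33 and -0.57 and adult values of 2.41, 2.37 and 2.85, with replicate 3 flagged at both ages. Its log2 fold change was 3.72 (SE 0.14, adjusted p = 0.000519), a 13.2-fold difference on 2 pairs.

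Speer4a (NM_029376) differed least among the mRNA-design probes. All 6 of its spots were well above background and unflagged, at -3.64, -3.45 and -3.37 on neonatal arrays 1 to 3 and at -1.77, -2.70 and -2.78 on adult arrays 1 to 3. Adult replicate 1 stood apart from the other adult arrays, and the ages did not overlap. The difference by limma was 1.07 on the log2 scale (SE 0.30, adjusted p = 0.0314), with a 95% confidence interval from 0.25 to 1.89. Without replicate 1 it was 0.67. The interval of Speer4b, from 3.29 to 4.16, did not reach that of Speer4a, and the difference between the probes was not tested. Over the alternatives the adjusted p of Speer4a ran from 0.0125 with normexp to 0.160 with the methods' t-test, and no alternative brought it to 5-fold.

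Within the slide that held replicates 1 and 2, with the flagged spots kept, the same 10 probes were called, against 4758 of 29133 probes in all. The smallest of the 12 log2 fold changes was 1.15, for Speer8-ps1. Replicate 3, alone on its slide and so without a test, had 0.59 for Speer4a as the smallest of the 12 differences. For the 6 probes without neonatal signal the direction was fixed by the filter. The sizes for probes at the neonatal floor are set by the floor. With the slide as a block, the 5 probes called with flagged spots left out were called as well, against 3785 of 24545 probes in all. Number and slide coincide for replicate 3 and cannot be told apart there.

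Probes for related copies can bind each other's transcripts. Probe sequences were not analysed here, so cross-hybridization was not tested, and each value above is that of a probe and not of 1 gene beyond doubt. The promoters in the RefSeq table (250 bases before to 50 bases after the transcription start, GRCm38.p6) give a measure of how alike the copies are. The table matched 10 of the 15 family genes with 11 promoters. Global alignment gave an identity between 60.2% and 98.7% for the 21 pairs among the Speer4 genes, with a median of 77.0%, and between 47.9% and 79.6% for the other 34 pairs. Speer4c, which had no probe, was 98.7% identical to Speer4e. Speer4a and Speer4b were 94.1% identical, and their probes gave log2 fold changes of 1.07 and 3.72.

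The promoters of Speer4a, whose probe was not called, and Speer4b, whose probe was, are shown with those of Speer3 and Speer2, whose probes gave the largest bounds with flagged spots left out. Each is printed 5′ to 3′ on the strand of the gene, and capitals mark the motifs searched. The Speer4a promoter lies at chr5:26039456-26039755 (minus strand), that of Speer4b at chr5:27501343-27501642 (minus strand), that of Speer3 at chr5:13791369-13791668 (plus strand) and that of Speer2 at chr16:69863695-69863994 (minus strand).
Speer4a: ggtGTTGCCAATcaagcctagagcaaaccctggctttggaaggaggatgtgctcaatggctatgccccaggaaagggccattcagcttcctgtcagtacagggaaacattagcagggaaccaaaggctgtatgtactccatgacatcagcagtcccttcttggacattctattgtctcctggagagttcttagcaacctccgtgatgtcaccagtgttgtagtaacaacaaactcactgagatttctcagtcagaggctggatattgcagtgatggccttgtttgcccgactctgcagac
Speer4b: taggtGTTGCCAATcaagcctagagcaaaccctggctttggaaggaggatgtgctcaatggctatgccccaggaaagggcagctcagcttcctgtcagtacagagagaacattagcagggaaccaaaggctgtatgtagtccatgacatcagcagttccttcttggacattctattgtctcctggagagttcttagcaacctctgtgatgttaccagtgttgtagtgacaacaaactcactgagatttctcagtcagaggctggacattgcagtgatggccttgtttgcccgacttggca
Speer3: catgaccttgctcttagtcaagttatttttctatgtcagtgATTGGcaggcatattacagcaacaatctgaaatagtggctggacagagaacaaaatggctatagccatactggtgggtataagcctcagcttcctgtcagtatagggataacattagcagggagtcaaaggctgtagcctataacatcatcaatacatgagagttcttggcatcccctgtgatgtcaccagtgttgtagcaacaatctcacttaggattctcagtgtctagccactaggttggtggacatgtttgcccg
Speer2: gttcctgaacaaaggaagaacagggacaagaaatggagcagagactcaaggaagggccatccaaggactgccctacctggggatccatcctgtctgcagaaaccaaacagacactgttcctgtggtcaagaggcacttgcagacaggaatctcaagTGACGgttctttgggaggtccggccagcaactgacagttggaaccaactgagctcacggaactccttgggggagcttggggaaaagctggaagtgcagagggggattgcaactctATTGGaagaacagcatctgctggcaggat

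The motifs searched on both strands were the full cAMP response element TGACGTCA, its TGACG part, GTTGCC as part of the X-box of RFX factors, TATAAA and CCAAT. Of these, GTTGCC was found in 6 of the 11 Speer promoters, against 12.5% of the 32851 promoters in the table. CCAAT was found in 9 of 11, against 37.4%. In Speer4a, Speer4b, Speer4c, Speer4d, Speer4e and Speer4f2 the letters of these motifs overlapped by 2 bases. TGACG was found in 1 promoter, that of Speer2, against 20.8%. TATAAA was found in 1, that of the second start of Speer1, against 13.6%. This match lies at base -206 from that start, on the opposite strand. The full element was found in no Speer promoter, and in 1.79% of all promoters. Related copies share sequence by descent, so these promoters are not independent, and a match is not a measured binding site.

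**Figure D2:**
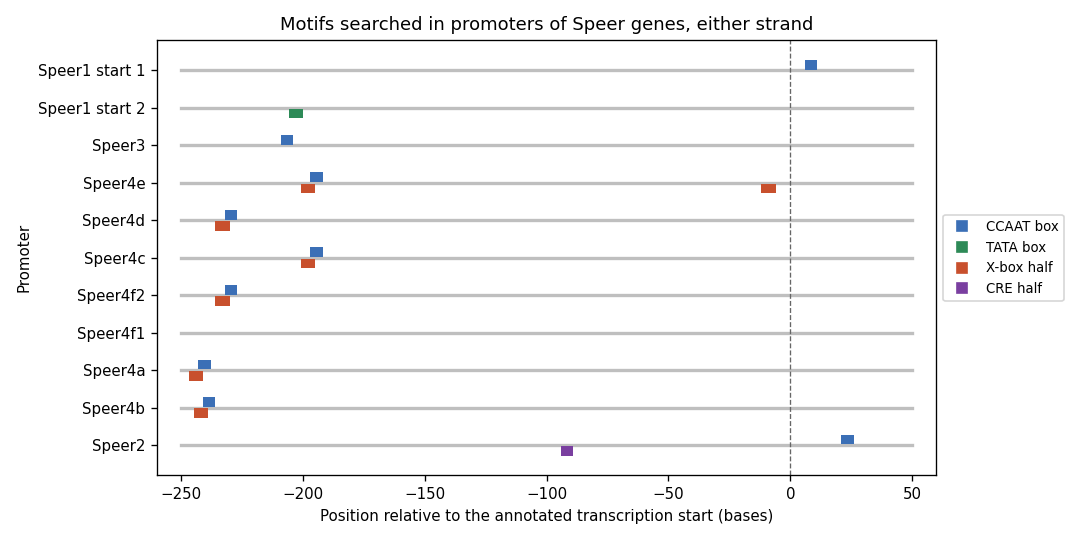
Positions of the motifs in the 11 Speer promoters (y axis), in bases relative to the annotated transcription start (x axis, dashed line at the start). Colours mark the motif, on either strand. X-box and CCAAT letters lie together in 6 Speer4 promoters. Speer4f1 holds no match, but its promoter as taken here starts inside the stretch that carries these letters in the others. A match reaching before that edge would be missed.

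Germ cell markers were looked at beside the family. Of 21 genes of haploid spermatids, 17 were tested and 15 were up-regulated in adult testes, with a median log2 fold change of 10.31 against -0.40 over the 15121 tested mRNA probes, of which 12.6% were up-regulated. The list's median was also 10.31 with the 5 members that lack neonatal signal set at their bounds. These 5 passed the filter through the adult arrays alone, so their direction was fixed by it. With flagged spots kept, 19 of 21 were up-regulated, where 12.8% of tested mRNA probes were. On neonatal arrays 1 to 3 the median normalized log2 signal of the list was -5.24, -5.34 and -5.25, and on adult arrays 1 to 3 it was 5.52, 5.70 and 5.86. Prm1 and Prm2, the protamines that package sperm DNA, rose by 12.47 (SE 0.21, adjusted p = 8.41e-05) and 14.32 (SE 0.18, adjusted p = 7.39e-05) on the log2 scale. Oaz3, an antizyme of spermatids, had the smallest difference of those tested, 0.39 (adjusted p = 0.110), and was well above background on 1 array.

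The spermatocyte list, genes of meiotic cells, had 5 of 8 tested members up-regulated and a median log2 fold change of 4.60, where 12.6% of tested mRNA probes were up-regulated. With flagged spots kept, 7 of 11 were, where 12.8% of tested mRNA probes were. Pgk2, the testis phosphoglycerate kinase, was at 13.24 (adjusted p = 0.000121), with 1 of 3 neonatal spots well above background, so its size is uncertain. Sycp1 of the synaptonemal complex was lowest at 0.81 (adjusted p = 0.0145) and not called. Sycp2, of the same complex, was at 4.76 with flagged spots kept (adjusted p = 0.000288). In the fit with flagged spots left out, 12.1% of all tested probes were called lower in adult testes. Of the spermatogonial genes, 4 of 8 tested members were called lower and 4 were not called, with a median of -2.38. With flagged spots kept, 8 of 11 were called lower, with a median of -2.66, where 15.4% of tested mRNA probes were called lower. In both fits 2 of the tested spermatogonial members lacked adult signal. These passed the filter through the neonatal arrays alone, so their direction was fixed by it. Sall4 had a log2 fold change of -4.43 (adjusted p = 0.00237), while Nanos3 was at -0.26 (adjusted p = 0.325). With flagged spots kept, Zbtb16 was at -3.64 (adjusted p = 0.000184), and Gfra1 was at the floor on the 6 arrays.

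Markers of the somatic cells of the testis were present at both ages, with 8 of 9 Sertoli cell genes well above background on all 3 adult arrays, 9 of 9 on all 3 neonatal arrays, and 8 of 8 Leydig cell genes at both ages. With flagged spots left out, 15.4% of all probes were called higher in adult testes and 12.1% lower. Of the Sertoli cell list 2 of 3 tested members were then lower. With flagged spots kept 6 of 9 were, where 13.7% of all probes were called lower. Sox9 at -3.12 and Fshr at -3.20 were among the 6, while Wt1 at -1.65 and Amh at -1.59 were not called. None of 4 tested Leydig cell members was called, and with flagged spots kept 2 of 8 were higher, where 15.8% of all probes were. Star, which carries cholesterol into mitochondria, was at 1.34 (adjusted p = 0.0201), Cyp11a1 at 1.16 and Lhcgr at -0.17. No member of the peritubular myoid list (4 tested) or the macrophage list (2 tested) was called, with Myh11 at -2.31, Acta2 at -1.91, Des at 0.06, Cd163 at 1.32 and Csf1r at -0.57. Adgre1 was at -0.86 with flagged spots kept. Endothelial Pecam1 (-3.27) and Cdh5 (-2.53) were lower, and Tek (-1.03) was not called. Red blood cell Hbb-bt was lower at -2.93, and Hba-a1 at -3.78 with flagged spots kept, while Alas2 was at 1.99. Of the epididymal epithelium genes, 0 of 4 tested were called, and the median of the list was at the floor on each array. In this list Crisp1 had a neonatal SD of 3.94 (n = 3), Lcn5 and Gpx5 were well above background on 1 neonatal array, and Lcn8 on none. The part of these cell types in the Speer differences was not tested.

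Among 13 regulators of transcription in spermatids, 8 of 13 tested were up-regulated, with a median log2 fold change of 3.18, where 12.6% of tested mRNA probes were up-regulated. The 1 member without neonatal signal passed the filter through the adult arrays alone, so its direction was fixed by it. Fhl5, a coactivator of CREM, rose by 11.25 (SE 0.14, adjusted p = 7.39e-05), Rfx2 by 5.59 (SE 0.14, adjusted p = 0.000267) and Crem by 3.75 (SE 0.16, adjusted p = 0.000704). Rfx1 was at 1.12 (adjusted p = 0.00778) and not called. Of the Dlg scaffold genes, 1 member was tested, Dlg4, at -1.06 (adjusted p = 0.0104). With flagged spots kept, 1 of 3 tested members was called lower (13.7% of all probes were), Dlg3, named here after its values were seen, at -4.26 (adjusted p = 0.00596). Dlg1 was at -1.17 with its 6 flagged spots kept, and Dlg5 had no probe with 1 symbol. For comparison, 3 of 3 tested members of the Iqcf cluster were up-regulated, and 5 of 5 with flagged spots kept, against 15.4% and 15.8% of all probes, with lower bounds of 15310.5-fold for Iqcf3 and 162-fold for Iqcf1 with the spots kept. Iqcf6 was called too. With no neonatal signal, 4 of the 5 passed the filter through the adult arrays alone, so their direction was fixed by it.

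Each profile over the 6 arrays was centred on the probe's mean. The genes most like the median of the 5 tested Speer mRNA-design probes were sought among 5095 probes of genes without a Speer symbol. On all 6 arrays this median was the profile of Speer4d, its flagged spot included, so the genes resemble that probe and not the probes with smaller or larger differences. They were Nwd2, Naif1, Lrrc6, Gm4884 and Cpa5, with a root mean square difference between 0.19 and 0.24 on the log2 scale. Their log2 fold changes ran from 6.56 to 6.88, and those of Nwd2, Naif1 and Gm4884 depend on the floor because no neonatal array was well above background. There were 19 different genes without a Speer symbol that had a probe and were nearest to a Speer gene. Whether they are related in sequence to the family was not tested. With flagged spots kept, 18 of the 19 were tested. Of these 4 were called higher and 4 lower, against 15.8% and 13.7% of all probes in that fit, so no share particular to the neighbours is read from them. With flagged spots left out, 1 was higher and 2 were lower of 13 tested, against 15.4% and 12.1% of all probes in that fit. The values that follow are with flagged spots kept. Gm6460, Gm9758, Gm10220 and 5031410I06Rik, neighbours of Speer genes on chromosome 5, were up-regulated, and Cacna2d1 (-3.01), Sema3c (-2.73), Actr3b (-2.93) and Hbb-b2 were down-regulated. Gm9758, beside Speer4e, had a lower bound of 319.7-fold (adjusted p = 1.25e-05 from limma). Gm6460, the nearest to Speer1 with a probe but with 8 genes between, had one of 283-fold (adjusted p = 2.57e-05 from limma). Gm10220, on the lower-coordinate side of Speer4b with 6 genes between, was at 3.81 on the log2 scale, while Paxip1, with 1 gene between on the other side, was at or near background at both ages. 5031410I06Rik, with 4 genes between it and Speer4a, was at 5.53. The neighbours of Speer9-ps1 and Speer5-ps1 were not called higher, with Hbb-b2 at -2.47 and Atg5 at -2.01 in adult testes, and AU018091 and Crybg1 at or near background. Between Hbb-b2 and Speer9-ps1 lie 9 genes.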

How the data were processed

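RNA from testes of both ages was labelled with Cy3, and the arrays were read by the authors with Feature Extraction 10.5.1.1. Their deposited scanner output gives the background-subtracted intensity of every spot, a median and a background intensity, and flags. The authors deposited log2 values too, which served as an alternative. In each column 99.8% of them match the log2 of the signal (floor of 5) less 1 constant for each array to within 0.001, with column medians between 1.20 and 1.30. The number of arrays limits the precision.

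Control spots, 200 negative-control spots per array included, were removed, and replicate spots of a probe averaged. Tests took probes that passed the scanner's well-above-background flag on 1 array or more and had 2 unflagged pairs or more. limma 3.58.1 (R 4.3.3) was run with a block for the replicate number, since a paired test stands in the methods, and was tested on simulated data. As a check of the pairing, deviations from the age mean were correlated across 14886 probes, which are not independent replicates. Pearson's r was 0.341, 0.248 and 0.587 for replicates 1 to 3, against 0.323 and 0.286 between unlike numbers on the slide of replicates 1 and 2, so there the number added nothing beyond the slide, and for replicate 3 they cannot be told apart. A lower bound compares the mean of the brighter age with the dimmer arrays. Each of these counts as the higher of its probe signal and its dimmest well-above-background spot (6.09 to 24.0). The brightest negative-control spot of each array was above that level, so every bound holds only for the scaling used here. Accessions were named with a RefSeq table on GRCm38.p6, which gave 1 symbol to 21905 of 22464 mRNA probes, and the brightest probe stood for a gene.

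Named genes are every Speer probe, the 5 most similar profiles, the nearest neighbours with a probe, and from each list its first 2 members and those with the largest and smallest absolute fold change. Alternatives were quantile normalization, a median shift, no floor, flooring at 5 ahead of the scaling, normexp with an offset of 50, the authors' values, filters on dim probes, no block, the slide as a block, a variance trend, the methods' t-test with and without adjustment, a fold change of 2, flagged spots kept and each replicate left out. The median pixel signal, and keeping flagged spots together with each alternative, were chosen after seeing the data. For want of a mean signal, normexp used the median signal. Protein and probe sequences were not analysed. The members and lists were chosen with earlier results of these data known. Python 3.11.15, numpy 2.4.6, pandas 2.3.3, Biopython 1.88 and matplotlib 3.10.9 were used.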

Additional observations from a re-analysis of the deposited data

How the results depend on the processing

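The count of up-regulated Speer probes was 5 of 7 tested. It was 10 of 12 with the outlier-flagged spots kept and 8 of 10 on the authors' own log2 values, which include the flagged spots, and in both more of the probes could be tested. Among all tested probes, 4708 of 29888 were called higher with the spots kept and 4322 of 26771 on the authors' values. Leaving out a replicate gave between 0 and 5, with 0 of 2 tested without replicate 1 or replicate 2, because fewer unflagged pairs were left. With the flagged spots kept it was 10 of 12 whichever replicate was left out. The methods' t-test gave 4 of 7 after Benjamini-Hochberg adjustment, and 3052 of 24517 among all tested probes. A fold change of 2 gave 7 of 7, and 12 of 12 with the flagged spots kept, since Speer4a and Speer8-ps1 then pass. Over all probes, 6485 were called higher in adult testes at a fold change of 2 in place of 3781, and between 1928 and 3744 with a replicate left out. With flagged spots kept, 7847 were called higher at a fold change of 2 in place of 4708. Without the replicate block, 5 Speer probes and 3788 of all probes were called higher.

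Of 199 log2 fold changes of single Speer probes under the alternatives at a fold change of 5, 198 kept their direction and their call or lack of one by fold change and adjusted p together, and 0 reversed. Not among them are the 5 called probes without replicate 1 or 2, where they could not be tested, and for these probes leaving out replicate 3 uses the same pairs and so is no test of stability. The filters, the variance trend and the t-tests leave the fold change as it was, so only its p could move. Where neonatal values were at the floor, a reversal was not possible. The 1 that lost its call was Speer2, with 8.32 and an adjusted p of 0.0687 by the methods' t-test, in a range from 2.85e-05 to 0.0687. Speer4a, under 5-fold throughout, had an adjusted p on either side of 0.05, from 0.0125 to 0.160. Speer9-ps1 ran from 3.54 after normexp to 7.06 with no floor, and Speer3 from 8.41 to 12.13. The median log2 fold change of all tested probes was -0.21, against -0.44 after the median shift, -0.57 after quantile normalization and 0.26 after normexp. Under these scalings Speer8-ps1 was at 1.03, 0.77, 0.63 and 0.82, above that median each time. Of all calls, 55.9% were higher in adult testes, against 68.6% after normexp, 48.1% after the median shift, 46.7% after quantile normalization and, with flagged spots kept, 53.5% as scaled here and 46.3% on the authors' values, so which direction holds more calls depends on the scaling. Signal near background gives only bounds.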
